A study of Mus musculus with 24 samples.

Results

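The genes described here make, load and control the major histocompatibility complex (MHC) class I molecule of the mouse. They were chosen by gene name as a known pathway, after an earlier comparison of the same M-Z+ and M-Z- embryos had been seen, so their values in that comparison are given as a description. All 10 genes were found among the 34745 genes of the deposited table: the heavy chains *H2-K1*, *H2-D1* and *H2-T23*, the light chain *B2m*, the peptide transporter genes *Tap1* and *Tap2*, the loading factor *Tapbp*, the immunoproteasome subunits *Psmb8* and *Psmb9*, and the regulator *Nlrc5*. Of the 10 genes, 9 passed the filter on low counts, and *Nlrc5* did not.

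RNA-seq of whole E13.5 embryos on a hybrid 129/DBA background was analysed, with 1 library for each of 6 M-Z+ and 6 M-Z- embryos. The mothers of both groups were 129 females without functional *Zfp57*, and the fathers were *Zfp57* heterozygotes mainly of the DBA/2J strain. M-Z+ embryos (*Zfp57*-/+) have a maternal mutant and a paternal wild-type allele, and M-Z- embryos (*Zfp57*-/-) have a mutant allele from each parent. Both groups therefore lack maternal *Zfp57*, and embryos with a wild-type maternal allele were not analysed here. The mutant allele arose on the 129 background and was brought into the DBA fathers by repeated backcrossing. A M-Z- embryo thus received from its father the mutant allele with the segment of chromosome 17 linked to it, and a M-Z+ embryo received the wild-type paternal segment. By this history the sequence next to the mutant allele is of 129 origin, but neither the labels nor the paper say how far it extends. For genes near *Zfp57*, the genotype and the strain origin of the paternal segment cannot be told apart. Set against each other, the groups ask what losing zygotic *Zfp57* adds where the maternal gene product is already missing. The labels give neither sex nor litter nor batch, so a p-value here measures only the spread between these embryos. Total counts on genes ranged from 12347383 to 19216288 in M-Z+ and from 12005145 to 14617373 in M-Z- embryos.

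Class I molecules carry peptides from proteins made inside a cell to its surface, where cytotoxic T cells and natural killer cells read them. Peptides are cut by the proteasome, pumped into the endoplasmic reticulum by TAP, and loaded onto a heavy chain bound to β2-microglobulin, and NLRC5 with an RFX complex drives transcription of most genes of the pathway. Interferon raises the whole set, and class I levels are known to be low in most cells of the midgestation embryo.

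*Zfp57* (ENSMUSG00000036036, chromosome 17 from 37001163 to 37010635 on GRCm38), the targeted gene, had normalized counts between 19.1 and 40.8 CPM (counts scaled by TMM to a common library size) with a median of 23.7 in M-Z+ embryos, and between 17.8 and 27.8 CPM with a median of 26.5 in M-Z- embryos. The groups overlapped, and M-Z+ replicate 4 was the highest of the 12 embryos. The log2 fold change of M-Z- against M-Z+ was −0.15 (standard error 0.18, adjusted p = 0.828 by edgeR's quasi-likelihood test, and p = 0.532 by an exact two-sided permutation test of the means). It was 0.0042 without M-Z+ replicate 4. The count covers the whole gene and does not check the genotype labels.

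Among the class I pathway genes, *H2-D1* had the highest log2 fold change, 0.75 (standard error 0.17), and *Psmb9* the lowest, −0.66 (standard error 0.42). The light chain *B2m* and the loading factor *Tapbp* had values of −0.00 and −0.02 (standard errors 0.14 and 0.12). Genes counted as called had an adjusted p below 0.05 in edgeR and differed by more than 0.5 on the log2 scale. None of the 9 tested genes was called, where 13 of 16026 tested genes (0.0811%) were. With the limit of 0.5 and p below 0.05 left unadjusted, 1 of the 9, *H2-D1*, passed, as did 1.54% of all tested genes, and at that p without the limit it was again this 1 gene, against 6.7% of all. DESeq2 called *H2-D1* and no other gene of the pathway, and it called 0.187% of the genes to which it gave an adjusted p. For none of the 10 genes did all 6 M-Z- embryos lie above or all below the 6 M-Z+ embryos, which was so for 0.3% and 0.275% of the tested genes. The log2 fold change was positive for 3 and negative for 6 of the 9 genes, with a median of −0.025, and the median over all tested genes was −0.007. Nothing is read from these shares, because the genes were chosen with results of this comparison already seen.

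**Figure D1:**
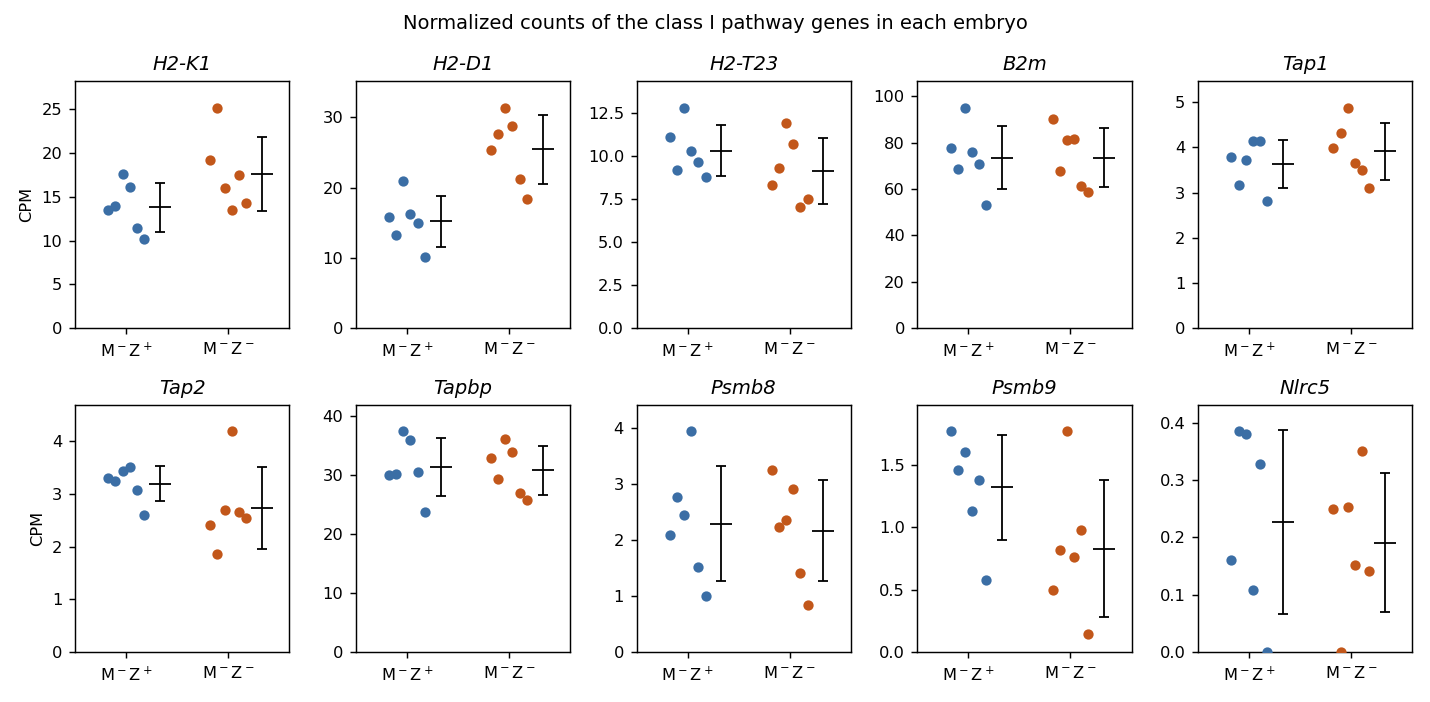
Normalized counts (CPM, vertical axis of each panel, starting at 0) of the 10 class I pathway genes in 6 M-Z+ and 6 M-Z- embryos, 1 point per embryo in the order of the replicate numbers, with the mean and SD of each group as a bar. *H2-D1* lies above 20.9 CPM in 5 of 6 M-Z- embryos and at or below it in every M-Z+ embryo, the M-Z- values of *B2m* and *Tapbp* lie inside the M-Z+ range, and *Nlrc5* lies near 0.

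*H2-K1* and *H2-D1* encode the classical heavy chains, which bind the peptide and are read by cytotoxic T cells. *H2-D1* (ENSMUSG00000073411, chromosome 17 from 35262730 to 35267499 on GRCm38) had 10.05 CPM in the lowest, 15.4 at the median and 20.9 in the highest M-Z+ embryo, and 18.4, 26.5 and 31.4 CPM in M-Z- embryos. All 6 M-Z- embryos were above the M-Z+ median and 5 were above the highest M-Z+ embryo, replicate 3, while M-Z- replicate 6 was within the M-Z+ range, so the groups overlapped. The means were 15.2 ± 3.61 and 25.5 ± 4.90 CPM (SD, n = 6 per group), a fold of 1.68. These values rest on 171 to 302 raw counts per M-Z+ and 261 to 378 per M-Z- library. The log2 fold change lay between 0.64 and 0.86 with each embryo left out in turn, and it was 0.92 with the gene length slope of each library (described below) as a covariate. edgeR did not call *H2-D1* in the comparison without covariates or with any embryo left out. It called the gene with this covariate and with the replicate number as a block, though these numbers are not said to pair embryos.

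*H2-K1* (ENSMUSG00000061232, chromosome 17 from 33996017 to 34000333) had 10.2 CPM in the lowest, 13.8 at the median and 17.6 in the highest M-Z+ embryo, and 13.5, 16.7 and 25.2 CPM in M-Z- embryos. Of the M-Z- embryos, replicates 1 and 2 were above every M-Z+ embryo, and the other 4 were within the M-Z+ range. Its log2 fold change was 0.35 (standard error 0.17) and 0.22 without M-Z- replicate 2. *H2-D1* and *H2-K1* are close in sequence, and how reads that match both were divided in making this table is not known, so the count of either gene is uncertain. Both genes are among the most variable of the mouse genome, the parental strains carry different *H2* haplotypes, and the reference genome is that of another strain, C57BL/6J. The counts add both alleles, so the level of an allele and the success of mapping its reads cannot be told apart.

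*H2-T23* encodes Qa-1, a heavy chain of the non-classical kind that presents leader peptides of other class I chains to natural killer cells. *H2-T23* (ENSMUSG00000067212, chromosome 17 from 36029773 to 36032855) had 8.75 CPM in the lowest, 9.97 at the median and 12.8 in the highest M-Z+ embryo, and 7.01, 8.81 and 11.9 CPM in M-Z- embryos. The groups overlapped, with 3 M-Z- embryos below the lowest M-Z+ embryo and none above the highest. Its log2 fold change was −0.18 (standard error 0.15), opposite in sign to those of *H2-D1* and *H2-K1*. It lay between −0.27 and −0.11 when 1 embryo was left out, and was −0.08 with the length slope as a covariate. The gene lies within *A930015D03Rik* over all of its 3083 bases, and that gene, with 55 to 132 counts per library, had a log2 fold change of −0.44 (standard error 0.15). Reads of the overlapping genes may have been divided between them, since the strand setting behind this table is not given in the sources used here.

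*B2m* encodes β2-microglobulin, the light chain that every class I heavy chain needs to fold and reach the cell surface, and it lies outside chromosome 17 (ENSMUSG00000060802, chromosome 2 from 122147686 to 122153083). *B2m* had 53.2 CPM in the lowest, 73.3 at the median and 95.1 in the highest M-Z+ embryo, and 58.7, 74.4 and 90.1 CPM in M-Z- embryos. The range of the M-Z- embryos was inside that of the M-Z+ embryos, with replicate 6 lowest in both groups. The means were 73.5 ± 13.7 and 73.4 ± 12.7 CPM (SD, n = 6 per group), and each library held 833 to 1408 counts. The ratio of *H2-D1* to *B2m* in TPM, which scales counts by gene length, was 0.0523 to 0.0609 in M-Z+ and 0.0781 to 0.113 in M-Z- embryos. By this ratio, chosen after the values were seen, all 6 M-Z- embryos were above all 6 M-Z+ embryos, whereas *H2-D1* alone overlapped between the groups. The ratio of *H2-D1* to *H2-K1* overlapped (2.2 to 3.07 in M-Z+, 2.57 to 5.0 in M-Z-), as did that of *Tap1* to *Tap2* (0.446 to 0.612, 0.398 to 1.06). In each of these, 3 M-Z- embryos were above every M-Z+ embryo. All these ratios are descriptions of the same comparison and add no test. *Patl2*, which spans *B2m*, had at most 2 counts per library.

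*Tap1* and *Tap2* encode the subunits of the peptide pump of the endoplasmic reticulum. *Tap1* (ENSMUSG00000037321, chromosome 17 from 34187553 to 34197225) had 2.81 CPM in the lowest, 3.76 at the median and 4.15 in the highest M-Z+ embryo, and 3.10, 3.82 and 4.88 CPM in M-Z- embryos. The groups overlapped, and M-Z- replicates 2 and 3 were above every M-Z+ embryo. *Tap1* had a log2 fold change of 0.10 (standard error 0.15), between 0.03 and 0.15 when 1 embryo was left out and 0.23 with the length slope as a covariate. *Tap2* (ENSMUSG00000024339, chromosome 17 from 34203527 to 34216321) had 2.60 CPM in the lowest, 3.27 at the median and 3.51 in the highest M-Z+ embryo, and 1.86, 2.60 and 4.19 CPM in M-Z- embryos. In *Tap2* 3 M-Z- embryos were below the lowest M-Z+ embryo, while M-Z- replicate 4 was the highest of all 12. *Tap2* had a log2 fold change of −0.23 (standard error 0.18), −0.39 without M-Z- replicate 4 and −0.14 without M-Z- replicate 2. Both subunits rest on few reads, 41 to 77 counts per library for *Tap1* and 25 to 65 for *Tap2*.

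*Tapbp* encodes tapasin, which bridges TAP and the heavy chain while peptides are tried for fit. *Tapbp* (ENSMUSG00000024308, chromosome 17 from 33915899 to 33929288) had 23.7 CPM in the lowest, 30.4 at the median and 37.4 in the highest M-Z+ embryo, and 25.7, 31.1 and 36.1 CPM in M-Z- embryos. The M-Z- range was inside the M-Z+ range, as for *B2m*, and replicates 3 and 6 were the highest and the lowest in each group. *Tapbp* overlaps *Zbtb22* over 3421 bases, and *Zbtb22* had 442 to 836 counts per library against 364 to 666 for *Tapbp*.

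*Psmb8* and *Psmb9* encode interferon-inducible catalytic subunits that replace *Psmb5* and *Psmb6* products in the immunoproteasome, which cuts peptides suited to class I grooves. *Psmb8* (ENSMUSG00000024338, chromosome 17 from 34197721 to 34201454) had 0.99 CPM in the lowest, 2.26 at the median and 3.94 in the highest M-Z+ embryo, and 0.846, 2.29 and 3.24 CPM in M-Z- embryos. *Psmb8* varied widely between embryos of the same genotype, from replicate 6 in both groups, the lowest, to M-Z+ replicate 4, the highest, and the groups overlapped. Its log2 fold change was −0.09 (standard error 0.35), and it was above 0 in 4 of 19 other settings, among them without M-Z+ replicate 4 (0.15) and with the length slope as a covariate (0.30). *Psmb9* (ENSMUSG00000096727, chromosome 17 from 34181988 to 34187764) had 0.573 CPM in the lowest, 1.42 at the median and 1.77 in the highest M-Z+ embryo, and 0.141, 0.79 and 1.77 CPM in M-Z- embryos. Of the M-Z- embryos, replicate 3 reached the highest M-Z+ value, replicates 1 and 6 were below every M-Z+ embryo, and 1 of 6 was above the M-Z+ median. The log2 fold change of −0.66 (standard error 0.42) rests on 11 to 22 counts per M-Z+ and 2 to 21 per M-Z- library. It moved to −0.44 without M-Z- replicate 6, which had 2 counts, and to −1.01 without M-Z- replicate 3.

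*Nlrc5* encodes the transactivator of class I genes (ENSMUSG00000074151, chromosome 8 from 94472763 to 94527272). It had 0 to 5 counts per library in either group, 19 counts in all in the M-Z+ and 15 in the M-Z- libraries. Embryos with 0 counts occurred in both groups (M-Z+ replicate 6 and M-Z- replicate 2), and 3 M-Z- embryos were above the M-Z+ median. After normalization the M-Z- level was 0.915 of the M-Z+ level, and counting error alone puts its exact binomial 95% limits at 0.433 and 1.9.

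Levels of different genes were compared as TPM over the 12 embryos, so their order depends on the gene lengths used. For *H2-K1*, *H2-T23*, *Tap1*, *Psmb8* and *Psmb9* this length is longer than the gene's span on the genome. The places of these genes in the order are therefore uncertain. *B2m* was at 301 ± 46.5 TPM (SD, n = 12), above 97.4% of the tested genes, and was above the next gene in all 12 embryos. *Tapbp* and *H2-D1* followed at 23.2 ± 2.65 and 23.1 ± 7.60 TPM and over all 12 embryos did not differ beyond their spread, with *Tapbp* above *H2-D1* in 6 of 12 embryos. These were the 6 M-Z+ embryos, and in the 6 M-Z- embryos *H2-D1* was the higher, at 29.2 against 23.3 TPM on average. *H2-K1* was at 7.64 ± 1.92 TPM and *H2-T23* at 5.30 ± 0.843, each above the next gene of this TPM order in every embryo. In CPM, which uses no gene length, *H2-K1* and *H2-D1* averaged 13.8 and 15.2 in M-Z+ embryos. The means were 17.6 and 25.5 CPM in M-Z- embryos. *Psmb8* (2.03 ± 0.792 TPM) and *Tap2* (1.95 ± 0.372) did not differ beyond their spread, with *Psmb8* above *Tap2* in 5 of 12 embryos. *Tap1* (1.13 ± 0.147), *Psmb9* (0.597 ± 0.290) and *Nlrc5* (0.0598 ± 0.0398) closed the order, and *Nlrc5* was below every tested gene. *B2m* made up 45.8% of the summed CPM of the 10 genes on average, so sums over the pathway are governed by it.

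The genes also varied between embryos of the same genotype. The mean deviation of the 9 tested genes from their group means, each gene scaled by its own SD, was lowest in M-Z+ replicate 6 (−1.49) and M-Z- replicate 6 (−1.28) and highest in M-Z+ replicate 3 (0.95) and M-Z- replicate 3 (0.88). *H2-D1*, *Tapbp* and *B2m* followed this mean most closely, with Pearson r of 0.97, 0.96 and 0.90 over 12 embryos, and *H2-K1* and *Tap2* least, with 0.51 and 0.42 (a description, since each gene is part of the mean). Outside the pathway the 5 genes most like it, among 13467 genes with a mean of at least 50 counts, were *Pdia3*, *Gpd1*, *Sfn*, *Cav3* and *Psap*, with r from 0.978 to 0.984 over the same 12 embryos. Their log2 fold changes were 0.07, 0.46, −0.20, 0.17 and −0.00, and none was called by edgeR. When 1 embryo was left out they lay between 0.0098 and 0.13, 0.36 and 0.55, −0.33 and −0.04, 0.0090 and 0.33, and −0.06 and 0.03. The gene length slope, that is the regression of log2 CPM on the log2 length of the genes within a library, was highest in M-Z+ replicate 6 (0.401), M-Z- replicate 6 (0.401) and M-Z- replicate 5 (0.388), and these were the 3 embryos with the lowest values of the pathway (−0.53 in M-Z- replicate 5). In the other 9 embryos the slope ranged from 0.121 to 0.281. The slope used the same lengths as TPM, which for some genes are longer than the gene's span on the genome. The part of this property of the libraries in the pathway's variation was not tested.

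Correlations of single pairs were computed within each group of 6 embryos, 8 relations in all, with exact two-sided permutation p and Benjamini-Hochberg adjustment over the 8. *H2-K1* and *H2-D1* had r = 0.85 in M-Z+ (rho = 0.83, exact p = 0.0292 and 0.0583, adjusted 0.0583 and 0.156) and r = 0.18 in M-Z- embryos (rho = −0.09, exact p = 0.722 and 0.919, adjusted 0.825 and 0.919). *H2-K1* and *B2m* had r = 0.87 in M-Z+ (rho = 0.71, exact p = 0.0208 and 0.136, adjusted 0.0556 and 0.272) and r = −0.02 in M-Z- embryos (rho = 0.09, exact p = 0.978 and 0.919, adjusted 0.978 and 0.919). The heavy chain *H2-K1* thus passed no adjusted threshold with either partner, and whether the groups differ in r was not tested. *Tap1* and *Psmb9*, which are read in opposite directions from a shared stretch, had r = 0.61 in M-Z+ (rho = 0.09, exact p = 0.207 and 0.919, adjusted 0.276 and 0.919) and r = 0.79 in M-Z- embryos (rho = 0.60, exact p = 0.0569 and 0.242, adjusted 0.0911 and 0.387). Without the 2 embryos farthest from the median of *Tap1*, r was −0.88 and −0.39, so these values rest on those embryos. *Nlrc5* with *Tap1* was not computed, because *Nlrc5* did not pass the filter. Without the 2 farthest embryos, r of *H2-K1* with *H2-D1* was 0.26 in M-Z+ and 0.35 in M-Z-, and r of *H2-K1* with *B2m* was 0.40 and 0.62.

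In whole embryos, fewer cells of a type and less RNA per cell cannot be told apart, and macrophages are rich in class I molecules. The 12 macrophage markers summed to 186 CPM in the lowest, 224 at the median and 266 in the highest M-Z+ embryo, and to 227, 271 and 315 CPM in M-Z- embryos. The 10 class I pathway genes summed to 113, 153 and 195 CPM in M-Z+ and to 131, 174 and 188 CPM in M-Z- embryos. Both sums were lowest in replicate 6 and highest in replicate 3 of each group. Within groups, the log2 sums had r = 0.95 in M-Z+ (rho = 0.94, exact p = 0.00833 and 0.0167, adjusted 0.0333 and 0.133) and r = 0.92 in M-Z- embryos (rho = 0.83, exact p = 0.00556 and 0.0583, adjusted 0.0333 and 0.156). Pearson's r thus passed the threshold after adjustment and Spearman's rho did not. Without the 2 embryos farthest from the median of the class I sum, r was 0.74 and 0.55, so the relation rests in part on the embryos left out, replicates 3 and 6 in M-Z+ and replicates 5 and 6 in M-Z-. Of these embryos, replicate 6 of both groups and M-Z- replicate 5 had the steepest gene length slopes, and the part of that slope and of macrophage number in the relation was not tested. Lowest and highest sums in replicates 6 and 3 were not particular to macrophage markers. Helpers of folding and loading, described below, had them too (2892.0 and 3999.4 CPM in M-Z+, 3293.9 and 3981.9 in M-Z-). So did the other class I-like genes (99.7 and 134, 94.8 and 133 CPM). Hepatocyte markers were lowest in replicate 6 of both groups, but erythroid markers in replicate 3 of M-Z+.

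**Figure D2:**
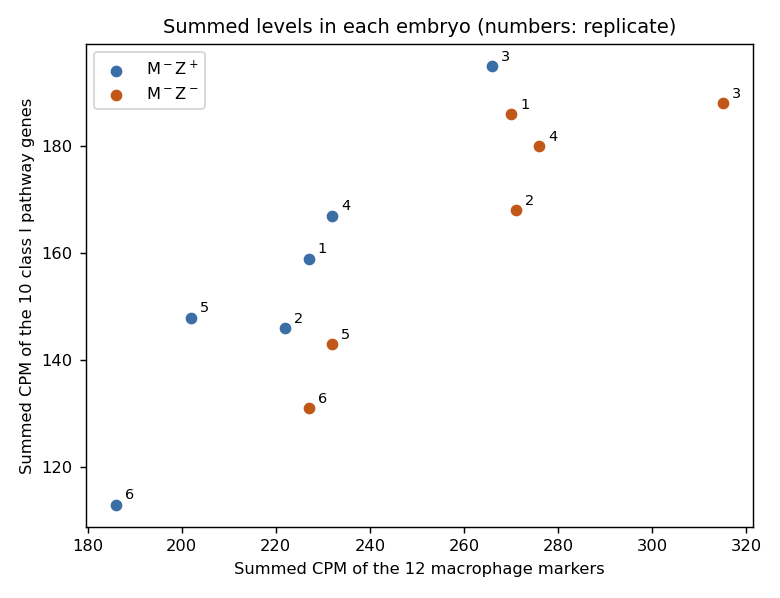
Summed CPM of the 10 class I pathway genes (vertical axis) against summed CPM of the 12 macrophage markers (horizontal axis), 1 point per embryo labelled with its replicate number; neither axis starts at 0. Replicate 6 has the lowest sum on both axes in each group (113 and 186 CPM for M-Z+, 131 and 227 CPM for M-Z-), and replicate 3 the highest.

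Of the 12 macrophage markers all were tested, none was called by edgeR, 1 (*Mrc1*) was past an unadjusted p of 0.05 and DESeq2 called 1, the same gene. *Mrc1*, a mannose receptor and the most abundant of these markers in CPM, was at 50.4 ± 8.32 CPM among M-Z+ and 75.3 ± 4.03 CPM among M-Z- embryos (SD, n = 6). On the log2 scale it differed by 0.58 (standard error 0.10, adjusted p = 0.0535 by edgeR), and all 6 M-Z- embryos were above all 6 M-Z+ embryos. It was named after its values were seen. The markers of highest TPM, *Tyrobp*, *C1qb* and *C1qa*, had log2 fold changes of 0.18, 0.05 and 0.03, and 11 of the 12 were above 0, with a median of 0.189 where the median of all tested genes was −0.007. With 1 embryo left out *Tyrobp* ranged from 0.06 to 0.31, *C1qb* from −0.04 to 0.14 and *C1qa* from −0.10 to 0.10. None of the 12 markers was at 0 counts in all libraries. Lymphoid and granulocyte markers were sparse, with 5 of 12 tested, *Ms4a1* and *Ncr1* at 0 counts in all 12 libraries, and none called by edgeR or DESeq2 or past an unadjusted p of 0.05. The 5 tested genes, *S100a9*, *Mpo*, *Cpa3*, *S100a8* and *Elane*, had log2 fold changes of −0.25, −0.27, −0.26, −0.02 and 0.34, with a median of −0.246. The placenta and decidua markers *Prl3d1*, *Tpbpa* and *Prl8a9* were at 0 counts in all libraries, and no gene of that list of 9 passed the filter. The 3 of highest TPM, *Prl3b1*, *Gcm1* and *Syna*, were at 0.0549, 0.0444 and 0.0342 TPM on average.

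Markers of tissues that make up most of the embryo had counts in the libraries of both groups. Of 8 endothelial, 8 hepatocyte, 8 erythroid and 13 lineage markers none was called by edgeR, 3 were past an unadjusted p of 0.05, *Kdr*, *Tek* and *Tubb3*, and DESeq2 called none with the fold change limit. The endothelial *Tek* had a log2 fold change of 0.33 (standard error 0.09, adjusted p = 0.536 by edgeR), with all 6 M-Z- embryos above all 6 M-Z+ embryos. The log2 fold changes of the markers of highest TPM were 0.10, −0.23 and 0.23 for the endothelial *Cdh5*, *Cldn5* and *Kdr*. They were −0.30, −0.17 and −0.38 for the hepatocyte genes *Alb*, *Afp* and *Apoa1*, 0.36, −0.12 and −0.16 for the globins *Hbb-y*, *Hbb-bs* and *Hba-a1*, and −0.24, 0.17 and 0.08 for *Tubb3*, *Col2a1* and *Acta1*. *Afp*, *Hbb-bs* and *Hba-a1* were above 0 with the length slope as a covariate (0.02, 0.03 and 0.08). With 1 embryo left out *Alb* ranged from −0.47 to −0.17 and *Hba-a1* from −0.28 to −0.01. The median log2 fold change was 0.080 for the endothelial, −0.275 for the hepatocyte, −0.142 for the erythroid and −0.026 for the lineage list.

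The wider pathway was followed in lists of genes other than the 10. Of 20 other class I heavy chain and class I-like genes, 14 were tested, and none was called by edgeR or by DESeq2. Of the 14, 8 had a log2 fold change above 0 and 6 below, with a median of 0.038. Past an unadjusted p of 0.05 were 2, both higher in M-Z- embryos and both Q region neighbours of *H2-D1*: *H2-Q1*, at 0.846 ± 0.274 and 1.45 ± 0.523 CPM (SD, n = 6 M-Z+ and 6 M-Z-), with a log2 difference of 0.76 (standard error 0.30, adjusted p = 0.744 by edgeR), and *H2-Q4*, at 6.16 ± 1.27 and 8.37 ± 1.29 CPM, with 0.44 (standard error 0.15, adjusted p = 0.705 by edgeR). Both overlapped between the groups, and both can share reads with near-identical Q genes. The other tested Q genes, *H2-Q2*, *H2-Q6*, *H2-Q10* and *H2-Q7*, had 0.43 (standard error 0.51), 0.10, −0.12 and −0.22. The largest difference of the list was in the other direction, in *H2-T10*, which lies 0.88 Mb from *Zfp57* and did not pass the filter. It had 10 to 23 counts per M-Z+ and 0 to 8 per M-Z- library (0.904 ± 0.324 and 0.250 ± 0.221 CPM, SD, n = 6 per group), with 5 of 6 M-Z- embryos below the lowest M-Z+ embryo, and a log2 fold change of −1.84 by DESeq2, which did not call it (adjusted p = 0.230). The genes of highest TPM in this list, *Fcgrt*, *H2-T24* and *Cd1d1*, had log2 fold changes of 0.12, −0.27 and −0.23. With single embryos dropped they lay between 0.03 and 0.23, −0.38 and −0.12, and −0.34 and −0.19.

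Helpers of folding and loading in the endoplasmic reticulum were followed as well, and those of highest TPM, *Calr*, *Pdia3* and *Hspa5*, were at 805, 672 and 375 TPM on average over the 12 embryos, above *B2m*. Of 8 such genes all were tested, none was called by edgeR or DESeq2, and 1 (*Uggt1*) was past an unadjusted p of 0.05. The median log2 fold change of the 8 was 0.158, with 6 above 0. *Calr* had a value of −0.04, *Pdia3* of 0.07 and *Hspa5* of 0.24. Of 9 proteasome subunits and activators, none was called by edgeR or DESeq2 or past an unadjusted p of 0.05, and 2 were above 0 and 7 below, with a median of −0.079. *Psmb5*, *Psmb6* and *Psme3*, the subunits of highest TPM, had log2 fold changes of −0.22, −0.17 and −0.03.

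The interferon-inducible subunits were set against their constitutive counterparts as a share of TPM in each embryo. *Psmb8* was 0.468% to 1.01% of *Psmb8* and *Psmb5* together in M-Z+ and 0.387% to 1.16% in M-Z- embryos, with replicate 6 lowest in each group. *Psmb9* was 0.199% to 0.389% of *Psmb9* and *Psmb6* in M-Z+ and 0.0467% to 0.432% in M-Z- embryos. Both shares overlapped between the groups and are descriptions. In CPM, which uses no gene length, the *Psmb8* share was 2.04% to 4.33% in M-Z+ and 1.69% to 4.95% in M-Z- embryos. The *Psmb9* share was then 0.402% to 0.785% and 0.0947% to 0.872%, so the size of these shares depends on the lengths. *Psmb10*, the inducible subunit outside the 10 genes, was 12.5% ± 1.31 of *Psmb10* and *Psmb7* in M-Z+ and 13.6% ± 1.03 in M-Z- embryos (SD, n = 6); the groups overlapped. The difference of 1.09 percentage points was within the spread between embryos (exact two-sided permutation test, p = 0.1407). Dropping single embryos gave differences between 0.62 and 1.38. The difference was 0.464 when CPM took the place of TPM, with means of 4.85% in M-Z+ and 5.32% in M-Z- embryos. The 3 inducible subunits together were 4.48% ± 0.381 of all 6 catalytic subunits in M-Z+ and 5.08% ± 0.268 in M-Z- embryos (SD, n = 6), a description because *Psmb8* and *Psmb9* enter it. Most of this sum is *Psmb10*, at 32.8 TPM on average against 2.03 for *Psmb8* and 0.597 for *Psmb9*.

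Regulators of class I transcription and interferon signalling numbered 23, of which 22 were tested, none was called by edgeR or DESeq2 and 1 (*Jak1*) was past an unadjusted p of 0.05. The median was −0.026, with 10 genes above 0 and 12 below, and *Rela*, *Jak1* and *Jak2* had log2 fold changes of −0.07, 0.17 and 0.13. The class II transactivator *Ciita*, a relative of *Nlrc5*, did not pass the filter. Of 10 class II genes, whose products present outside proteins on macrophages and dendritic cells, 3 were tested, none was called by edgeR or DESeq2 and 1 (*H2-Ab1*) was past an unadjusted p of 0.05. *H2-DMa*, *Cd74* and *H2-Ab1* had log2 fold changes of −0.07, −0.48 and −0.63 (median −0.476), and *H2-DMa* was at 0.19 with the length slope as a covariate.

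Interferon raises the class I genes, and 20 interferon-induced genes were read for it. Of these 13 were tested, none was called by edgeR, 2 were past an unadjusted p of 0.05, and DESeq2 called 1. The 2 were *Gbp2*, a GTPase of host defence, at 2.38 ± 0.496 CPM among M-Z+ and 4.28 ± 0.475 CPM among M-Z- embryos (SD, n = 6; log2 difference 0.84, standard error 0.16, adjusted p = 0.107 by edgeR), and *Usp18*, a brake on interferon signalling, at 2.37 ± 0.828 and 1.26 ± 0.421 CPM (−0.90, standard error 0.29, adjusted p = 0.685 by edgeR). All 6 M-Z- embryos were above all 6 M-Z+ embryos for *Gbp2*, the gene that DESeq2 called, while *Usp18* overlapped and lay in the other direction. Both were named after their values were seen. Over the 13 genes the median log2 fold change was −0.028, with 5 above 0 and 8 below. *Bst2*, *Igtp* and *Ifit2*, the genes of highest TPM in the list, had log2 fold changes of −0.39, −0.28 and 0.02. With single embryos dropped they lay between −0.57 and −0.19, −0.36 and −0.22, and −0.06 and 0.11. Summed over the list, the level was 82.1 ± 10.6 CPM for M-Z+ and 77.8 ± 3.15 CPM for M-Z- embryos (SD, n = 6).

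Of the 10 class I pathway genes 8 lie on chromosome 17, between 0.97 Mb (*H2-T23*) and 3.07 Mb (*Tapbp*) from *Zfp57*. *H2-D1* is at 1.73 Mb, *H2-K1* at 3.00 Mb, and *Psmb9*, *Tap1*, *Psmb8* and *Tap2* are at 2.78 to 2.81 Mb. The log2 fold changes of these 8 were above 0 for 3 and below 0 for 5 genes, with a median of −0.058. The 2 nearest to *Zfp57*, *H2-T23* and *H2-D1*, had values of −0.18 and 0.75, and a relation to distance was not tested. Within 1 Mb of *Zfp57*, 3 of 15 tested genes were past an unadjusted p of 0.05, against 10.3% of 145 genes at 1 to 5 Mb, 9.52% of 126 at 5 to 10 Mb, 7.61% of 447 elsewhere on the chromosome and 6.60% of 15292 genes on other chromosomes. Without *H2-T23*, the class I pathway gene among the 15, it was 21.4% of 14 genes. None of the tested genes on chromosome 17 was called by edgeR, and DESeq2 called 1 of them, *H2-D1*. The shares are a description, and whether genes near *Zfp57* differ from others was not tested.

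**Figure D3:**
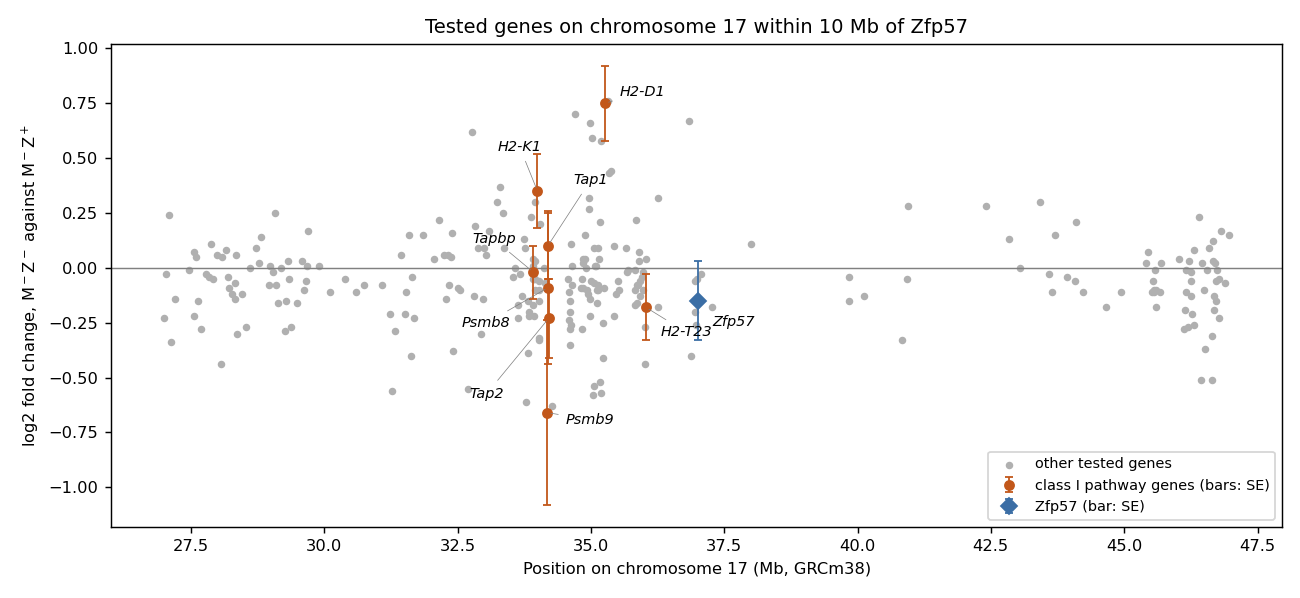
Log2 fold change of M-Z- against M-Z+ embryos (vertical axis) of the tested genes on chromosome 17 within 10 Mb of *Zfp57*, at their position on GRCm38 in Mb (horizontal axis). Class I pathway genes and *Zfp57* carry bars of 1 standard error. *H2-D1* (0.75) and *Psmb9* (−0.66) lie at the upper and lower ends of the class I genes, and points of other genes reach similar values.

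Among the tested genes within 5 Mb of *Zfp57*, the lowest unadjusted p belonged to *H2-D1*, followed by *Mut*, *A930015D03Rik*, *Rps28* and *H2-Q4*. *Mut*, a mitochondrial mutase 3.92 Mb away on the other side of *Zfp57*, averaged 53.8 CPM over the M-Z+ and 65.4 CPM over the M-Z- embryos, a log2 difference of 0.28 (standard error 0.08, adjusted p = 0.589 by edgeR). *Rps28*, a ribosomal protein gene at 3.18 Mb, averaged 65.4 and 50.1 CPM, a difference of −0.39 (standard error 0.13, adjusted p = 0.705 by edgeR). Both overlapped between the groups, as did *A930015D03Rik* (edgeR adjusted p = 0.705).

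The promoters of the heavy chains are shown because *H2-D1* and *H2-K1* had the highest log2 fold changes of the 10 genes and *H2-T23* had a value on the other side of 0, and that of *B2m* because its product pairs with all 3. RefSeq promoter windows (GRCm38.p6, C57BL/6J) were matched for 8 of the 10 genes in 9 windows, not for *Tap2* and *Nlrc5*, and the 250 bases before each start were searched on both strands. The motifs were the core of the interferon-stimulated response element (ISRE: GAAA, any 2 letters, GAAA), an NF-κB-like motif (GGG, any 4 letters, CCC), ATTGG (the core of the Y box), TGACG (the core of the X2 box) and TGCCGC (the core that ZFP57 binds when methylated). In this order they are held by 2.97%, 10.3%, 33.8%, 17.7% and 8.68% of 32817 promoters of the same length. Capitals mark matches on either strand, and a longer run of capitals is formed by overlapping matches of the NF-κB-like motif. The alleles of the 129 and DBA strains may differ from these reference sequences.
*H2-D1*, chr17:35262844-35263093, plus strand: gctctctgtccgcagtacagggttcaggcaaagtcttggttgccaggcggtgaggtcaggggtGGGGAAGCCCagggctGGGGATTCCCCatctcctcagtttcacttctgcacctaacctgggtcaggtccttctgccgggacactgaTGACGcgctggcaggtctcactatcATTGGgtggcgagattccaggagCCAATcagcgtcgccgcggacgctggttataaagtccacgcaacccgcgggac
*H2-K1*, chr17:34000334-34000583, minus strand: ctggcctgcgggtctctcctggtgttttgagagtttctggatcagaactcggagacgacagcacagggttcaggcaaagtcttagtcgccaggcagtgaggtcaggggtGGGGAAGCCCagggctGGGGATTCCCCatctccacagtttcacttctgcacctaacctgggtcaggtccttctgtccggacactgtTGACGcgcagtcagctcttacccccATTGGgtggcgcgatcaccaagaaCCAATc
*H2-T23*, chr17:36032702-36032951, minus strand: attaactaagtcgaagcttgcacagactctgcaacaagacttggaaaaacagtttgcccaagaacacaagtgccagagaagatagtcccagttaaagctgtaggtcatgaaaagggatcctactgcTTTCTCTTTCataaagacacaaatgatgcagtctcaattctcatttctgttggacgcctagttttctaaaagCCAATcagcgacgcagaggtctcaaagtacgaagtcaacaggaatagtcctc
*B2m*, chr2:122147437-122147686, plus strand: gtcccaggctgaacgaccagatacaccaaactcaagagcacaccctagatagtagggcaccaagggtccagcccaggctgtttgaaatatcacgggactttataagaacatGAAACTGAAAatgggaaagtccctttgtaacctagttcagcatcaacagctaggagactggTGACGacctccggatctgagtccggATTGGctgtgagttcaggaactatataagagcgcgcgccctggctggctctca

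*H2-D1* and *H2-K1* held the same set, with 3 matches of the NF-κB-like motif, 1 of TGACG and 2 of ATTGG in each of these windows. Windows were compared at the gap-free offset that gave the most identical bases. For these 2 windows it was 46 bases, with 82.8% of 204 bases identical, and for *H2-D1* with *H2-T23* the best offset gave 32.0% of 250 bases. *H2-T23* held no match of the NF-κB-like motif or TGACG, and the ISRE core and ATTGG were each matched on the reverse strand. *B2m* held the ISRE core, TGACG and ATTGG once each in the direction of the gene. No window of the 8 genes held TGCCGC, which says only that these letters are not in these 250 bases. ATTGG was found in 8 of 9 windows, TGACG in 6, the NF-κB-like motif in 3, all of *H2-K1* or *H2-D1*, and the ISRE core in 2. Counted by gene, these were 7, 5, 2 and 2 of 8 genes. The windows are not all separate, since the 2 windows of *H2-K1* share 236 bases and those of *Psmb9* and *Tap1* overlap. *Psmb8* and *Tapbp* had no match but ATTGG in *Tapbp*. The windows of *H2-D1*, *Tapbp*, *Psmb8* and *Psmb9* lie within the genes as the deposited table draws them, and that of *H2-T23* largely does. For *H2-D1*, the RefSeq start at 35263094 is downstream of the start in the table.

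*Psmb9* and *Tap1* start 225 bases apart in opposite directions, and the stretch between the RefSeq starts is shown because the 2 genes share it while their log2 fold changes were −0.66 and 0.10. It is given on the plus strand, in the direction of *Tap1*, and holds 1 match each of ATTGG and TGACG. The annotated genes overlap over 212 bases, and reads from these bases may have been counted for either.
*Psmb9* to *Tap1*, chr17:34187331-34187555, plus strand: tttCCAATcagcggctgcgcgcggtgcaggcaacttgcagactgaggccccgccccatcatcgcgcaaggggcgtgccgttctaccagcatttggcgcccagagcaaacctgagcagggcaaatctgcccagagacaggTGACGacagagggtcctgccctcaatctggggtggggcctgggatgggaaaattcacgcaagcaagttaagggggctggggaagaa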

How the data were processed

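RNA-seq of 12 embryos was analysed. Unnormalized counts of 34745 genes, deposited in 1 column per embryo, were used for every test. The authors also deposited FPKM values of the same libraries, which imply 1 length per gene. TPM and the gene length slope used these lengths. For some genes this length is longer than the gene's span on the genome, as for *H2-T23* with 6451 against 3083 bases. The same holds for *H2-K1* (7271), *Tap1* (11741), *Psmb8* (3848) and *Psmb9* (6303), and the reason was not tested. The submitters' processing notes name HISAT2 2.0.4, Trim Galore 0.4.1 and mm10, without their order. The paper describes counting with featureCounts on mm9 for its own libraries, whereas the positions in this table follow GRCm38, so the counting program, strand setting and annotation behind this table are not known here. The 12 embryos of the series with bisulfite sequencing were not analysed here.

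M-Z- and M-Z+ embryos were compared without covariates in R 4.3.3 with edgeR 4.0.16 (TMM, filterByExpr, glmQLFit, glmQLFTest), with Benjamini-Hochberg adjustment over the 16026 tested genes. The standard error is the log2 fold change over the square root of F. Correlations used log2 CPM with a prior count of 2, and figures were drawn with Python 3.11.15 and matplotlib 3.10.9. The 10 genes and all lists were chosen with earlier results of these data known.

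The text names the 10 genes, *Zfp57*, the 3 genes of highest TPM in each other list and every called gene of it, the 5 genes of lowest p within 5 Mb of *Zfp57* and the 5 genes that vary most like the pathway. Other names (*Mrc1*, *Gbp2*, *Usp18*, *H2-T10*, *H2-Q1*, *H2-Q2*, *H2-Q6*, *H2-Q7*, *H2-Q10*, *Psmb10*, *Ciita*, *Psmb7*, *Uggt1*, *Tek*, *S100a8*, *Elane*, markers at 0) were added after the values were seen, and *Zbtb22* and *Patl2* because they overlap the 10 genes. Alternatives were DESeq2 1.42.0, its size factors, upper-quartile scaling, other filters, the replicate number as a block, the gene length slope as a covariate, each embryo left out, no limit on the fold change and the unadjusted p. Leaving out the 3 embryos of steepest length slope together was added after the data were seen.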

Additional observations from a re-analysis of the deposited data

Results flagged for a closer look

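In 4 of 150 sets of 6 values, 1 embryo stood apart from the other 5, judged by its distance to the next embryo as a share of the whole spread. By this measure chance marks about 1 in 20, which would be 7.5 of 150. *Tap2* reached 4.19 CPM in M-Z- replicate 4, where the other M-Z- embryos lay between 1.86 and 2.69 CPM. *Hspa5* was at 526 CPM in the same embryo and between 778 and 924 CPM in the others. The loading helpers of the endoplasmic reticulum summed to 3981.9 CPM in M-Z- replicate 3 and to between 3293.9 and 3535.5 CPM in the others. The class I transcription regulators summed to 988 CPM in M-Z+ replicate 4 and to between 1066.2 and 1094.3 CPM in the others. No explanation was tested.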

How the results depend on the processing

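edgeR called 13 genes in all, DESeq2 40, edgeR with the gene length slope 23 and the unadjusted p 247, and 11 to 15 genes were called when single embryos were dropped. Among the 10 class I pathway genes the number was 0 by edgeR and 1 by DESeq2, with the length slope and at the unadjusted p, *H2-D1* each time. Over the other lists it was 0 by edgeR, 2 by DESeq2, 2 with the length slope, 5 at the unadjusted p, and 0 to 1 with single embryos dropped (*Mrc1* without M-Z+ replicate 3 or 6). Without the 3 embryos of steepest length slope, chosen after the data were seen, the 3 numbers were 16, 0 and 0. The cause was not tested.

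The replicate numbers are not said to pair embryos, and same-numbered embryos had correlations of 0.02 to 0.64 between their deviations, not all above 0.1. With the replicate block 21 genes were called, 1 of them, *H2-D1*, among the class I pathway genes.

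The sign of *B2m*, *Tapbp* or *Psmb8* changed in 18 of 177 values of the tested class I pathway genes, and that of the other 6 in none. Dropping single embryos gave *Zfp57* values between −0.24 and 0.0042. With the length slope the log2 fold change was 0.11 for *Calr*, 0.0061 for *Psmb6*, 0.02 for *Psme3*, 0.19 for *H2-DMa*, −0.08 for *Ifit2*, 0.02 for *Afp*, 0.03 for *Hbb-bs*, 0.08 for *Hba-a1*, 0.04 for *Sfn* and 0.09 for *Psap*, each of the other sign than without it. *Ifit2* was −0.0003 with upper-quartile scaling, and *Psap* 0.02 without the 3 embryos of steepest slope. With single embryos dropped, *Calr* ranged from −0.12 to 0.03, *H2-DMa* from −0.28 to 0.03, *Ifit2* from −0.06 to 0.11, *C1qb* from −0.04 to 0.14, *C1qa* from −0.10 to 0.10, *Acta1* from −0.01 to 0.16 and *Psap* from −0.06 to 0.03. The median over the tested class I pathway genes, −0.025, then lay between −0.103 and 0.046, and was 0.130 with the length slope.

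Spearman's rho and the r without the 2 farthest embryos of the sums were 0.94 and 0.74 in M-Z+ and 0.83 and 0.55 in M-Z- embryos. For pairs, the sign changed to −0.88 and −0.39 for *Tap1* with *Psmb9* without the 2 farthest embryos (M-Z+, M-Z-), to −0.09 for *H2-K1* with *H2-D1* by rho, and to 0.09 by rho and 0.62 without the 2 farthest for *H2-K1* with *B2m*, all in M-Z- for the last 2 pairs. The difference in the inducible proteasome share was 0.599 percentage points in TPM and 0.239 in CPM. Counts were lowest for *Nlrc5*, *Psmb9*, *Psmb8*, *Tap2* and *Tap1*, with at most 77 per library.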
